A study of Mus musculus with 2 samples.

Results

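The cells described here are the control cells of a mouse thymus sort that held RNA of Il2ra and none of Bcl11b. Il2ra encodes CD25, the alpha chain of the interleukin-2 receptor. Bcl11b encodes a zinc finger factor of T-lineage commitment. A cell was a member when the authors had assigned it to the control, when it held at least 3000 unique molecular identifiers (UMIs, 1 per captured RNA molecule), and when at least 1 UMI was Il2ra and 0 were Bcl11b. The rule found 760 cells among 3250 control cells of that depth, or 23.4% (21.9 to 24.9), of 8293 barcodes in the whole data set. Intervals in parentheses cover 95% of counting error only: exact Poisson for a level, binomial for a ratio of counts, Clopper-Pearson for a share of cells.

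Members were compared with the other 2490 control cells. These split into 1084 cells with neither RNA (Il2ra- Bcl11b-), 826 cells with Bcl11b RNA and none of Cd3g (Bcl11b+ Cd3g-), and 580 cells with both Bcl11b and Cd3g RNA (Bcl11b+ Cd3g+). Cd3g encodes the CD3 gamma chain of the antigen receptor of T cells. A further comparison used 826 cells of a separate sort, gated Flt3- Ly6d+.

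All cells came from the thymus of C57BL/6 mice of genotype Bcl11byfp/yfp, which carry a yellow fluorescent reporter at both copies of Bcl11b. The control sort was gated Lin- 7AAD- Kit+ and was open for CD25 and the reporter. The Flt3- Ly6d+ sort was in addition CD25- and Bcl11b-, as were the Flt3+ Ly6d- HSA-, Flt3+ HSA+ and Flt3- Ly6d- HSA- sorts, HSA being the CD24 antigen. The 5 sorts were stained with hashtag antibodies and run as 1 droplet library, so no barcode could be shared between libraries. The sources used here do not give the age or number of mice. Each sort was made once, so no difference could be tested against repeated sorts and no p-value is given.

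T-cell precursors enter the thymus as Kit+ progenitors that still can form other blood cells. Notch signals turn on Tcf7 and Gata3, the cells place CD25 on their surface at the stage called DN2, and commitment to the T lineage follows when Bcl11b is turned on. Cells with CD25 but not yet Bcl11b are therefore known as DN2a cells, in which progenitor genes such as Spi1 and Lmo2 are being turned off while T-lineage genes are being turned on. RNA is sampled sparsely in droplets, so a cell without a Bcl11b UMI may still hold that RNA or its protein.

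Members had a median of 15558.5 UMIs and 3807 genes, against 16443.5 UMIs and 3899.5 genes in the other control cells. Their UMIs summed to 13041708, against 44066176. Mitochondrial genes took a median of 4.67% of UMIs in members and 4.62% in the other control cells. The assigned hashtag made up a median of 99.3% of hashtag counts in both. Levels below are UMIs summed over the cells of a class and scaled to 1000000 (CPM). A gene was compared when it reached 10 CPM in the higher class, and was called higher or lower when its ratio was at least 1.5. In summed RNA of a class, fewer cells with a gene and less RNA in each cell cannot be told apart, so shares of cells are given for cells thinned to 3000 UMIs.

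The values that chose the members are a description only. Members held a median of 3 Il2ra UMIs and at most 23. There were 199 members with 1 Il2ra UMI, 243 with 2 or 3 and 318 with 4 or more. Just outside the rule stood 133 control cells with Il2ra RNA and exactly 1 Bcl11b UMI, 181 with 2 or 3 and 993 with 4 or more. At the depth limit, 6 members had 3000 to under 5000 UMIs, and 3 control cells of 2000 to under 3000 UMIs passed the rule on the genes. Members were 23.4% (20.8 to 26.1) of control cells with under 12000 UMIs, 25.3% (23.1 to 27.5) of those with 12000 to under 24000 and 19.1% (16.2 to 22.2) of those with more, and the intervals of the deeper pair did not overlap. Thinned to 3000 UMIs, 49.1% of members held an Il2ra UMI. In the Flt3+ Ly6d- HSA- sort, which was gated CD25-, 0.285% of cells did after thinning, at a median depth of 15515 UMIs before it, and in 241 granulocyte-marker cells of all sorts 0.415% did, at a median of 34315 UMIs.

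Applied to the gated sorts, all CD25- at the surface, the same RNA rule took 185 of 826 cells of the Flt3- Ly6d+ sort (22.4%), 91 of 1160 in the Flt3- Ly6d- HSA- sort (7.84%), 46 of 1176 in the sort gated Flt3+ HSA+ (3.91%) and 14 of 1405 in the one gated Flt3+ Ly6d- HSA- (0.996%). The share in the Flt3- Ly6d+ sort thus lay within the counting interval of the control, although surface CD25 had been gated out. Depth differed, with medians of 11504, 10140.5, 21188.5 and 15515 UMIs in the gated sorts in that order. In the control, medians were 15558.5 UMIs in members and 16443.5 in the other cells. The shares were not brought to a common depth. Il2ra stood at 235 CPM in members, at 129 CPM in those 185 cells and at 29.8 CPM in the whole Flt3- Ly6d+ sort.

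The 3 other genes that mark the class were present. Tcf7, which encodes the Notch-induced factor TCF-1, stood at 223 CPM (215 to 231) in members, at 88.2 CPM in Il2ra- Bcl11b- cells, at 281 CPM in Bcl11b+ Cd3g- cells and at 331 CPM in Bcl11b+ Cd3g+ cells. Cpa3, a carboxypeptidase known from mast cells and also expressed by early T-cell progenitors, stood at 291 CPM in members, 131 in Il2ra- Bcl11b- cells, 575 in Bcl11b+ Cd3g- cells and 501 in Bcl11b+ Cd3g+ cells. Ly6d, a surface antigen of lymphoid progenitors, stood at 238 CPM in members, 73.1 in Il2ra- Bcl11b- cells, 691 in Bcl11b+ Cd3g- cells and 818 in Bcl11b+ Cd3g+ cells. All 3 lay between the cells without either RNA and the cells with Bcl11b RNA, with intervals that did not overlap. After thinning, 48.4% of members held Tcf7, 52.0% Cpa3 and 24.5% Ly6d, so the marker Ly6d was found in the minority of members. Gata3, the GATA factor of T-cell specification, was at 40.7 CPM in members, against 27.0 in Il2ra- Bcl11b- cells and 68.5 in Bcl11b+ Cd3g- cells. Thy1, the Thy-1 antigen of T-lineage cells, was at 12.7 CPM in members, against 10.6 in Il2ra- Bcl11b- cells, 64.6 in Bcl11b+ Cd3g- cells and 233 in Bcl11b+ Cd3g+ cells, so members stood near the cells without Il2ra RNA for this gene.

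**Figure D1:**
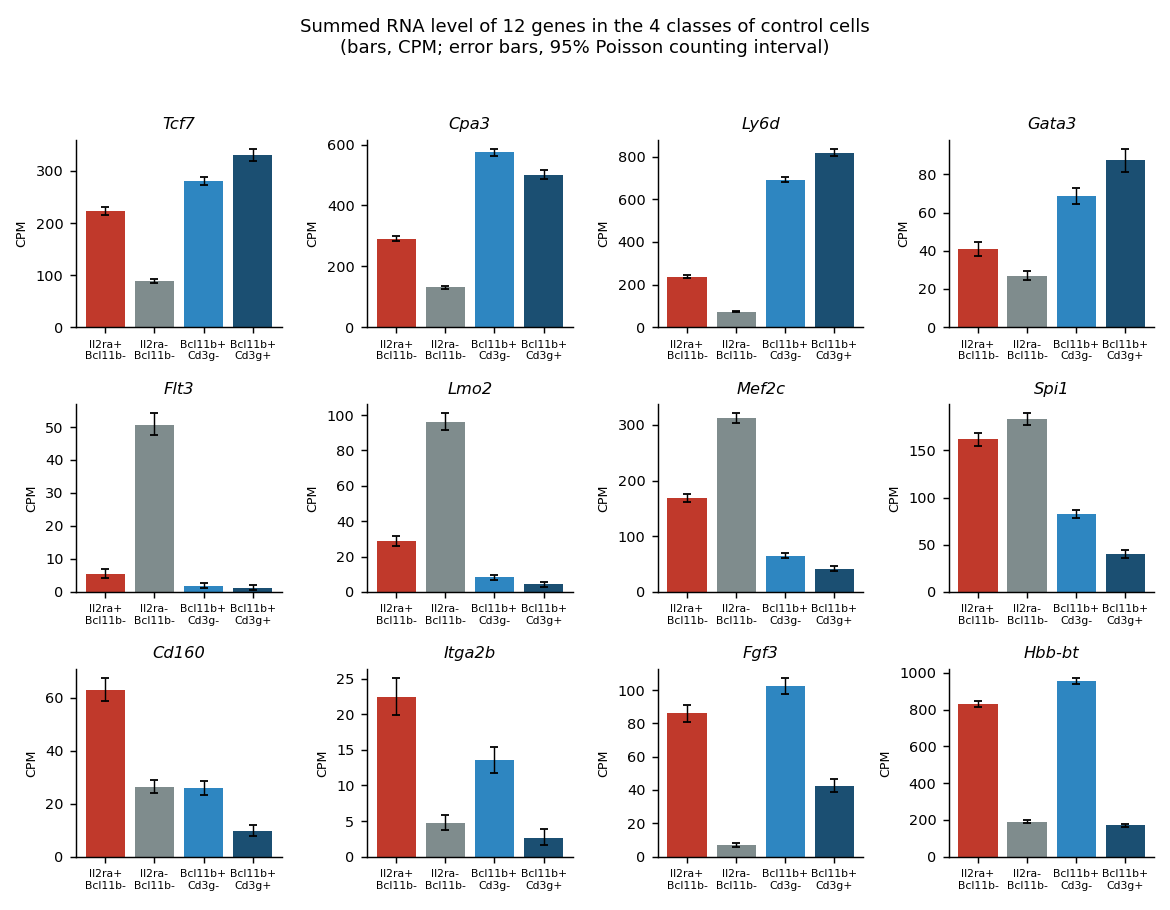
Levels of 12 genes (y axes, CPM from 0) in the 4 classes of control cells (x axes), with bars for summed levels and error bars for 95% Poisson intervals. Tcf7, Cpa3, Ly6d and Gata3 are intermediate in Il2ra+ Bcl11b- cells, Flt3 and Lmo2 are far lower than in Il2ra- Bcl11b- cells, and Cd160 (63.0 CPM) and Itga2b (22.4 CPM) are highest in them.

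Against Il2ra- Bcl11b- control cells, members held more RNA of Tcf7, Gata3, Lat and Lck and less of 7 progenitor regulators. Of 7702 genes compared, 152 (1.97%) were called higher and 229 (2.97%) lower. With scaling factors from edgeR or DESeq2 there were 131 higher and 253 lower. Calls with ratios close to 1.5, such as those of Gata3 and Lck, thus depend on the scaling. Among 16 T-lineage regulators, 14 were compared, 3 were higher and 1 was lower. The 3 were Tcf7 at a ratio of 2.52 (2.37 to 2.68), Gata3 at 1.51 (1.33 to 1.71) and Zfpm1, a GATA cofactor, at 2.05 (1.75 to 2.41). The lower member of the list was Gfi1, a zinc finger repressor, at 13.8 CPM against 21.3 CPM, a difference that turned round (log2 ratio 0.24) when cells were thinned to 3000 UMIs before the classes were assigned. The median log2 ratio of the list was 0.26, beside 0.04 over all genes compared.

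Of 20 T-cell receptor and signalling genes, 10 were compared, 4 were higher and 1 was lower, and the summed level of the list was 917 CPM in members against 1190.2 CPM in Il2ra- Bcl11b- cells. Lat, the adaptor downstream of the receptor, was at 109 CPM in members against 65.7 CPM in Il2ra- Bcl11b- cells. Lck, the receptor's proximal kinase, was at 228 CPM against 151 CPM, and Prkcq, a protein kinase C of T cells, was at 16.1 CPM against 9.86 CPM, with a log2 ratio of -0.036 when cells were thinned to 3000 UMIs before the classes were assigned. The remaining one, Cd3g, rests on few cells: 12 members held any Cd3g UMI, and 10 of them held 98.8% of the summed UMIs. Dntt, the terminal transferase that adds bases at receptor joints, was lower in members, at 331 CPM against 749 CPM. Cd3g apart, these genes encode parts of signalling and recombination rather than the receptor itself: Cd3e was at 1.53 CPM in members and Ptcra, the pre-receptor alpha chain, at 1.15 CPM.

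Progenitor regulators went the other way. Of 18, 16 were compared, 1 was higher and 7 were lower, with a median log2 ratio of -0.24. Flt3, a cytokine receptor of multipotent progenitors, was at 5.44 CPM in members and 50.7 CPM in Il2ra- Bcl11b- cells, a ratio of 0.107 (0.0831 to 0.137). Lmo2, a bridging factor of blood stem cell transcription complexes, was at 28.5 CPM against 96.3 CPM. Mef2c, a MADS box factor of lymphoid and myeloid progenitors, was at 168 CPM against 312 CPM. Hoxa9, a homeobox factor of progenitors, was at 32.4 CPM against 71.0 CPM, and Cd34, a surface glycoprotein of progenitors, at 172 CPM against 381 CPM. The others were Meis1, a Hoxa9 partner, and Hmga2, a chromatin protein of immature cells. The exception was Gfi1b, a repressor best known in red cell and platelet precursors, at 30.4 CPM in members against 17.6 CPM. Spi1, which encodes the myeloid and progenitor factor PU.1, differed by less than the threshold, at 162 CPM against 183 CPM, and so did Bcl11a, the paralogue of Bcl11b, at 144 CPM against 169 CPM.

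Receptors also differed. Il7r, the interleukin-7 receptor chain that sustains early T cells, was 2.37-fold (2.08 to 2.71) higher in members than in Il2ra- Bcl11b- cells, at 47.8 against 20.2 CPM. Stat5a, which carries its signal, was 1.52-fold higher, close to the threshold. Itga4, an integrin chain of homing cells, was 2.07-fold higher, whereas Ccr9, a chemokine receptor of thymus entry, was lower, at 0.767 CPM against 12.9 CPM. With cells holding 2 or more markers of granulocytes, B cells or dendritic cells left out, which removed all but 159 members, the higher level of Il7r was not seen (log2 ratio -0.020), nor that of Cpa3 (-0.072). Dtx1, a Notch target, was 3.81-fold (2.73 to 5.40) higher at 10.4 CPM, while Notch1 and the target Hes1 were at 146 and 129 CPM in members, with ratios of 1.18 and 1.14.

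The largest ratio of a named gene over Il2ra- Bcl11b- cells was that of Fgf3, a fibroblast growth factor gene, at 12.3 (10.2 to 14.9). Fgf3 was at 86.0 CPM in members, 6.98 in Il2ra- Bcl11b- cells, 102 in Bcl11b+ Cd3g- cells and 42.5 in Bcl11b+ Cd3g+ cells. After H2-Q6, a class I histocompatibility gene with close paralogues, at 4.84, and Itga2b at 4.76 came Hbb-bt, an adult beta globin gene, at 4.37 (4.20 to 4.54), with 830 CPM against 190 CPM. Ly6d followed at 3.25, then Prkca, a protein kinase C, at 3.16, Plxdc2, a membrane protein gene, at 3.14 and Olfm5 at 3.12. Most of these were as high or higher in Bcl11b+ Cd3g- cells, where Hbb-bt stood at 957 CPM, Prkca at 58.4 CPM and Plxdc2 at 51.2 CPM. On the low side Prtn3, Flt3, Hmga2, Ctsg, Il12a, Anxa1, Adgrl4 and Ccl4 had the smallest ratios, between 0.0545 and 0.241.

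Granulocyte genes were part of that low side. All 11 of the 14 granulocyte and monocyte markers that were compared were lower in members, whose summed level was 510 CPM against 2713 CPM. Among the Il2ra- Bcl11b- cells, 40 (3.69%) held at least 7 of these markers, against 2 members (0.263%). Prtn3, a neutrophil granule protease, was at 32.4 CPM in members against 595 CPM. With those cells left out on both sides, an alternative added after the data were seen, the log2 ratio of Prtn3 was -0.27 and that of Ctsg, a related protease, 0.43, against -4.20 and -2.63 with them. Mpo, the myeloperoxidase gene that early progenitors transcribe, was at 307 CPM in members, and 89.1% of members held at least 1 of its UMIs at full depth.

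Against Bcl11b+ Cd3g- control cells, members held more RNA of progenitor regulators, immediate early genes and Tyrobp and less of T-lineage genes. Of 7689 genes compared, 181 (2.35%) were called higher and 176 (2.29%) lower. Progenitor regulators gave 8 higher of 13 compared and 0 lower, with a median log2 ratio of 0.92 beside -0.02 over all genes compared. The 8 were Lmo2 at 3.49 (2.86 to 4.29), Hoxa9 at 3.11, Mef2c at 2.58, Cd34 at 2.57, Bcl11a at 2.05, Spi1 at 1.95 (1.83 to 2.09), Hhex, a homeobox factor of progenitors, at 1.89 and Gfi1b at 1.54. Spi1 was at 162 CPM in members and 82.8 CPM in Bcl11b+ Cd3g- cells, so the larger step of Spi1 lay after the class and that of Flt3 before it, while Lmo2 had ratios of like size on both sides. Kit was at 108 CPM in members against 76.2 CPM, under the threshold.

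On the T-lineage side, 4 of 14 regulators compared were lower in members than in Bcl11b+ Cd3g- cells and 0 were higher. They were Gata3 at 0.595, Tcf12, an E protein, at 0.564, Ets1, an ETS factor, at 0.359 and Gfi1 at 0.666, a ratio of the last one whose interval of 0.553 to 0.801 spans the threshold. Of the T-cell receptor and signalling genes, 5 of 10 compared were lower, namely Cd247, the zeta chain, Lat, Thy1, Rag2, a recombinase subunit, and Dntt. Lat was at 109 CPM in members against 233 CPM and Thy1 at 12.7 CPM against 64.6 CPM. The higher one was Cd7, an immunoglobulin family antigen of early lymphoid cells, at 64.9 CPM against 19.5 CPM. Of 10 immediate early genes, which respond to stimulation and to handling of cells, 4 were higher and 0 lower, with a median log2 ratio of 0.52. They were Egr1, Ier2 at 220.4 CPM in members against 147 CPM, Zfp36, which destabilises messenger RNA, at a ratio of 2.18 and Nr4a1, an orphan nuclear receptor, at one of 2.04. Against Il2ra- Bcl11b- cells the same list gave 0 higher and 2 lower. Il7r was at 47.8 CPM in members against 140 CPM, and the survival gene Bcl2 at 28.6 CPM against 74.9 CPM. Ccnd3, a D cyclin, was at 147 CPM against 292 CPM, while Ccnd1 was at 10.3 CPM against 2.32 CPM. The cyclin-dependent kinase inhibitor gene Cdkn1a was at 23.5 CPM in members, 8.42 in Il2ra- Bcl11b- cells and 47.3 in Bcl11b+ Cd3g- cells, so it was intermediate. Cd44, the hyaluronan receptor of progenitors, was at 47.1 CPM in members, 87.4 in Il2ra- Bcl11b- cells and 30.9 in Bcl11b+ Cd3g- cells. Of 5 Notch receptors and targets compared, Dtx1 at 2.33 (1.74 to 3.14) and Nrarp at 1.98 (1.65 to 2.38) were higher in members and 0 were lower.

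The strongest single differences from Bcl11b+ Cd3g- cells were Neurl3, a ubiquitin ligase gene, at 3.90 (3.22 to 4.74), Il1r1, the interleukin-1 receptor, at 3.51, Lmo2, Spns2, a lipid transporter, at 3.44, Egr1, an immediate early factor, at 3.44, Evl, an actin regulator, at 3.36, Cd7 at 3.33 and the serpin gene Serpina3g at 3.31. Among cells with at least 24000 UMIs the log2 ratio of Egr1 was -0.44, so its higher level was not seen there. Lower in members were Ccdc109b at 0.0472, Themis, a T-cell receptor signalling protein, at 0.102, Skap1, an adhesion adaptor of T cells, at 0.120, Fam169b at 0.142, the guanylate binding protein gene Gbp4 at 0.155, the tubulin gene Tubb3 at 0.168, Thy1 at 0.196 and the adaptor gene Nck2 at 0.226. Ccdc109b was at 1.53 CPM in members, 0.665 in Il2ra- Bcl11b- cells, 32.5 in Bcl11b+ Cd3g- cells and 93.4 in Bcl11b+ Cd3g+ cells. It and Themis were thus nearly off in both classes without Bcl11b RNA.

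**Figure D2:**
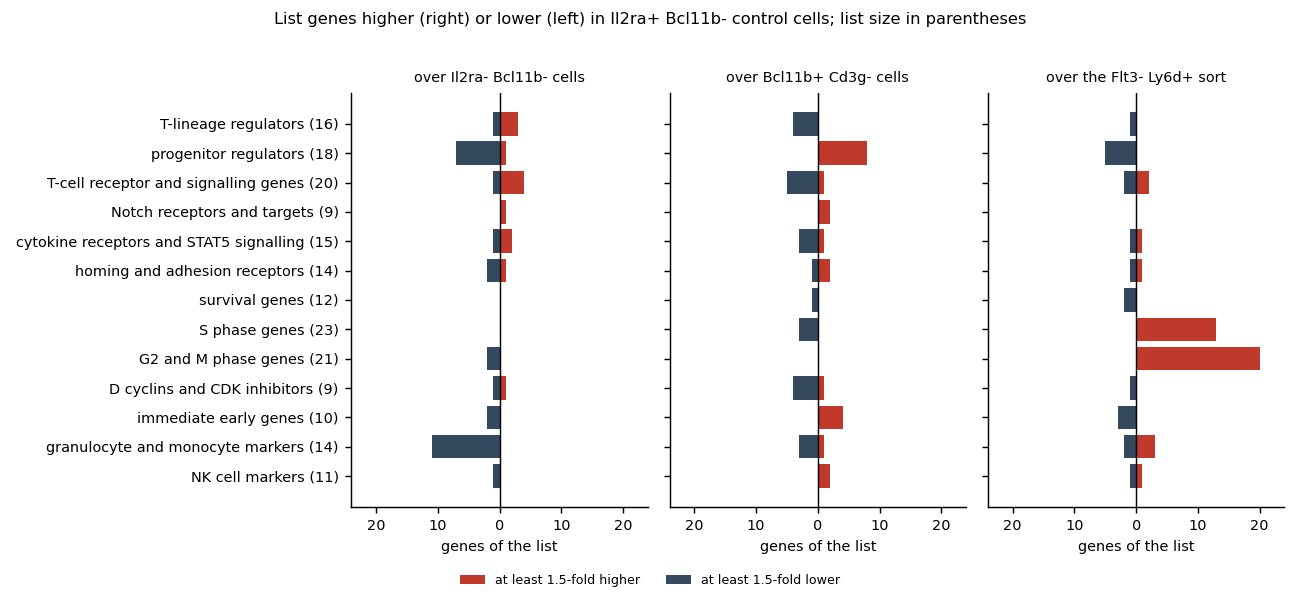
Number of genes of 13 lists (rows, with list size) that were at least 1.5-fold higher (bars to the right) or lower (bars to the left) in Il2ra+ Bcl11b- control cells, over Il2ra- Bcl11b- cells, over Bcl11b+ Cd3g- cells and over the Flt3- Ly6d+ sort. Progenitor regulators gave 7 lower in the first and 8 higher in the second, and G2 and M phase genes gave 20 higher over the Flt3- Ly6d+ sort.

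Few genes were highest in the class. At least 10 CPM in members and a ratio of at least 1.5 over each of the other 3 classes was reached by 14 of the 7473 genes at 10 CPM or more in members, and 13 of the 14 may be named. Cd160, a surface receptor of lymphocytes, was at 63.0 CPM (58.7 to 67.4) in members, 26.3 in Il2ra- Bcl11b- cells, 25.8 in Bcl11b+ Cd3g- cells and 9.79 in Bcl11b+ Cd3g+ cells. Deptor, an inhibitor of the mTOR kinase, was at 93.9 CPM in members, 47.6 in Il2ra- Bcl11b- cells, 62.4 in Bcl11b+ Cd3g- cells and 27.1 in Bcl11b+ Cd3g+ cells. Olfm5 was at 50.8 CPM in members, against 16.3, 32.6 and 19.3 CPM in the same order. Thinned shares gave the same order for Cd160, held by 18.2% of members, 8.39% of Il2ra- Bcl11b- cells and 7.87% of Bcl11b+ Cd3g- cells.

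Itga2b, which encodes the integrin alpha IIb chain of platelets and megakaryocytes that some blood progenitors also carry, was at 22.4 CPM (19.9 to 25.1) in members, 4.71 in Il2ra- Bcl11b- cells, 13.5 in Bcl11b+ Cd3g- cells and 2.60 in Bcl11b+ Cd3g+ cells. P2rx1, an ATP-gated channel also known from platelets, was at 13.2 CPM in members, 5.21 in Il2ra- Bcl11b- cells, 6.46 in Bcl11b+ Cd3g- cells and 1.35 in Bcl11b+ Cd3g+ cells. Gfi1b was at 30.4, 17.6, 19.7 and 4.69 CPM in that order. Among cells with at least 24000 UMIs, Itga2b was not higher in members than in Bcl11b+ Cd3g- cells, with a log2 ratio of -0.30. Of 12 erythroid and megakaryocyte markers, 4 had 0 UMIs in members, which allows up to 0.230 CPM by a floor of 3 counts. They were the alpha globin genes Hba-a1 and Hba-a2, Gata1, a GATA factor of that lineage, and Epor, the erythropoietin receptor. The list summed to 858 CPM in members, of which Hbb-bt made up 830 CPM, against 202 CPM in Il2ra- Bcl11b- cells and 974 CPM in Bcl11b+ Cd3g- cells. After thinning, 4.08% of members (2.79 to 5.74) held at least 2 of the 12, against 0.738% (0.319 to 1.45) of Il2ra- Bcl11b- cells and 1.69% (0.930 to 2.83) of Bcl11b+ Cd3g- cells. These were 31 members, and 25 members held both Hbb-bt and Itga2b, so the share largely restates those genes. Itga2b is itself among the 12, so these cells give no independent view of its level. The part of these cells in the level of Gfi1b was not tested. The remaining named genes were Chn2, Clu, Fam171a2, Padi4, Sh2d1b1, Slc26a11 and Zfp160, at 10.7 to 28.6 CPM in members. Over Il2ra- Bcl11b- cells, the log2 ratio of Sh2d1b1 was -0.20 with cells thinned before the classes were assigned. That of Chn2 was -0.25 with cells holding 2 or more markers of granulocytes, B cells or dendritic cells left out, which kept 159 members. Against the Flt3- Ly6d+ sort, 10 of the 13 differed by less than 1.5-fold, so they were not set apart from that sort. The number of such genes ran from 3 with a minimum of 50 CPM to 52 with cells holding 2 or more of those markers left out. All 14 were found again with totals without mitochondrial and ribosomal protein genes, and 10 with equal weight for each cell. With cells thinned before the classes were assigned, 3 were found again in a set of 36, and under 12000 UMIs 5 in a set of 44. In the set of 52 there were 5, and among cells with at least 24000 UMIs 2 of the 14 were found again in a set of 17.

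The same rule in the other direction was met by 10 genes, each at least 1.5-fold lower in members than in every other control class and at 10 CPM or more in all of those, and 9 of them may be named. Lgals1, which encodes the sugar-binding protein galectin-1, was at 149 CPM in members, 318 in Il2ra- Bcl11b- cells, 458 in Bcl11b+ Cd3g- cells and 1014 in Bcl11b+ Cd3g+ cells. Dntt was at 331 CPM in members, 749 in Il2ra- Bcl11b- cells, 540.5 in Bcl11b+ Cd3g- cells and 1117 in Bcl11b+ Cd3g+ cells. Rgcc, a cell cycle regulator gene, was at 39.7 CPM in members, against 61.5, 107 and 347 CPM in that order. For these genes the levels on both sides of the class were thus higher than in it. The others were Arhgap19, Cdkn3, Frmd6, Gfi1, Gsr and Pfkp, at 6.82 to 32.6 CPM in members. When cells were thinned to 3000 UMIs before the classes were assigned, Lgals1, Rgcc, Gfi1 and Pfkp were not lower in members than in Il2ra- Bcl11b- cells, with log2 ratios of 0.037, 0.24, 0.24 and 0.11, while that of Dntt was -0.76. Among cells with under 12000 UMIs, Arhgap19 (0.71) and Gsr (0.13) had log2 ratios above 0 over Il2ra- Bcl11b- cells, and among cells lacking G2 and M phase UMIs Cdkn3 had one (0.97) over Bcl11b+ Cd3g- cells.

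Promoter sequences are shown for Itga2b and P2rx1, because they were highest in the class, and for Fgf3, because its ratio over Il2ra- Bcl11b- cells was the largest. They are RefSeq sequences of GRCm38.p6, from 250 bases before to 50 bases after an annotated start, written on the strand of the gene. Itga2b is on chromosome 11 at chr11:102469834-102470133, minus strand, P2rx1 on chromosome 11 at chr11:72998895-72999194, plus strand, and Fgf3 on chromosome 7 at chr7:144838362-144838661, plus strand. Capitals mark matches, on either strand, to GATA with an A or T before it and an A or G after it, the letters known to be bound by GATA factors.
Itga2b: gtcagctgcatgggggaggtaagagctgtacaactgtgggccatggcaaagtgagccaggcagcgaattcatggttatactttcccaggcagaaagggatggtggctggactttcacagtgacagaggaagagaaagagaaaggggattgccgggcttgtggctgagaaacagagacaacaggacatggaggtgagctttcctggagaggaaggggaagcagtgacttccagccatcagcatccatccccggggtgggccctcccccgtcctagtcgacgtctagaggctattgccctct
P2rx1: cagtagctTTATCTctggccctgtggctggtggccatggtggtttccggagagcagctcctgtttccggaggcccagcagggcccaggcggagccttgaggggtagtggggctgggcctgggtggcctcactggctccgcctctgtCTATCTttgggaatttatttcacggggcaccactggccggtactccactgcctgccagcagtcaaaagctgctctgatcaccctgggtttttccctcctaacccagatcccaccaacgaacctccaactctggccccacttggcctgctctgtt
Fgf3: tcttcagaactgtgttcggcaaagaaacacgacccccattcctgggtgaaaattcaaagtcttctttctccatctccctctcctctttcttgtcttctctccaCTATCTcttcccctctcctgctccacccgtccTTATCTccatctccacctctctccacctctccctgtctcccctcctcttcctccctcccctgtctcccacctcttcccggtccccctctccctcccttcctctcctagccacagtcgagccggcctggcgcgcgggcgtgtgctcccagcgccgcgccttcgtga
P2rx1 and Fgf3 hold 2 matches each, all on the reverse strand, and Itga2b holds 0. Of the named genes highest in the class, 9 had a promoter entry, and 5 of these 9 held a match in at least 1 of their windows, 6 of 13 windows in all (46.2%). Over all 32851 promoters of that length 29.8% held a match. A match is a description of letters and not of binding.

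**Figure D3:**
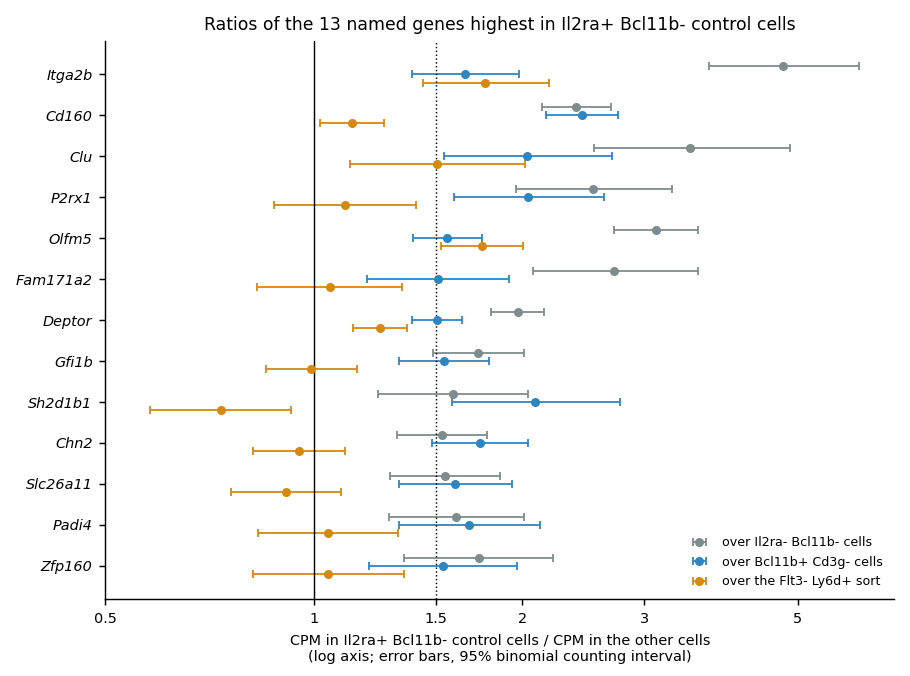
Ratio of CPM in Il2ra+ Bcl11b- control cells to CPM in 3 other sets of cells (x axis, log scale) for the 13 named genes that were highest in the class (rows), with 95% binomial intervals. The dotted line marks 1.5. The ratios over the Flt3- Ly6d+ sort lie around 1 for most genes, whereas Itga2b reaches 4.76 over Il2ra- Bcl11b- cells.

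Against all other control cells pooled, 80 of 7694 genes (1.04%) were higher in members and 204 (2.65%) lower. The pooled cells hold classes on both sides of the members, so a gene that steps in 1 direction across the classes can come out near 1: Tcf7 had a ratio of 1.05, Mef2c of 1.04 and Cd34 of 0.913. The largest ratios were Itga2b at 2.97 (2.53 to 3.49), Cd160 at 2.79, Neurl3 at 2.35, Olfm5 at 2.21, Qrfp, a neuropeptide gene, at 2.18, Spns2 at 2.09, H2-Q6 at 2.05, the chemokine gene Ccl5 at 2.02, Tyrobp at 2.01 and Serpina3g at 2.01. Tyrobp encodes an adaptor of receptors on NK and myeloid cells. It was at 526 CPM in members, 419 in Il2ra- Bcl11b- cells, 215 in Bcl11b+ Cd3g- cells and 44.4 in Bcl11b+ Cd3g+ cells, and 72.2% of members held it after thinning. The smallest ratios, between 0.0312 and 0.0925, belonged mostly to genes of Bcl11b+ Cd3g+ cells. These genes were Dgkeos, Gzma, a granzyme, Cd3e, Ccdc109b, Cd3g, Arl5c, Cd3d, Ccr9, Ptcra and Themis. Of them, Ccr9 was also lower in members than in Il2ra- Bcl11b- cells. The Bcl11b+ Cd3g+ class was split off by Cd3g itself, so its Cd3g level describes the split. Members and the pooled cells were not chosen by Cd3g, so the pooled ratios of the CD3 genes do not come from that split.

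Among lists over the pooled control cells, 10 of 15 T-cell receptor and signalling genes compared were lower and 1, Cd7, was higher. Of G2 and M phase genes 9 of 21 were lower and 0 higher, with a median log2 ratio of -0.56. Notch receptors and targets gave 2 higher of 5 compared, Dtx1 and Nrarp, a feedback inhibitor of Notch, at 1.84 each. When cells were thinned to 3000 UMIs before the classes were assigned, the log2 ratio was -0.20 for Dtx1 and -0.31 for Cd7. Mycn, a Myc family factor, was 1.57-fold higher, at 74.2 CPM against 47.4 CPM, while 0 of 15 Myc-linked growth genes passed the threshold in either direction. Cish, a feedback inhibitor of cytokine signals, was 1.55-fold higher, but lower by the same thinning (log2 ratio -0.42), and Socs2, of the same family, was lower at 0.497.

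Members and the Flt3- Ly6d+ sort held several genes at like levels. Tcf7 was at 223 CPM in members and 212 CPM in the sort, Kit at 108 and 112 CPM, Gata3 at 40.7 and 36.7 CPM and Cd160 at 63.0 and 55.4 CPM. Of 7763 genes compared, 293 (3.77%) were higher in members and 224 (2.89%) lower. Scaling to totals without mitochondrial and ribosomal protein genes changed this split to 299 higher and 402 lower. Of 14 T-lineage regulators compared, 0 were higher and 1 lower, Satb1, a chromatin organiser, at 98.1 CPM against 150.2 CPM. Progenitor regulators gave 0 higher and 5 lower of 15, among them Lmo2 at 0.453 (0.398 to 0.515), Mef2c at 0.519 and Flt3 at 0.382. Ly6d, on which the sort was gated, was at 238 CPM in members against 432 CPM.

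Fgf3 was the named gene with the largest ratio over that sort, at 3.73 (3.24 to 4.30), with 86.0 CPM in members against 23.0 CPM. Lower in members were the chemokine genes Ccl3 at 0.200 and Ccl4 at 0.207, the cytokine gene Il12a at 0.294, the transcription factor genes Mn1 at 0.384 and Maf at 0.391, S100a4, a calcium binding protein, at 0.395, Evl at 0.440 and Cd7 at 0.447. The other named genes higher in members, Esco2, Tk1, Ccna2, Kpna2, Rrm2, Aurka and Hist1h1a, act in DNA replication and division. Of the lists, 20 of 21 G2 and M phase genes and 13 of 23 S phase genes were higher, with median log2 ratios of 1.12 and 0.63. Among cells with under 12000 UMIs the log2 ratio over the sort was -1.59 for Ccna2, -0.13 for Esco2 and -0.28 for Hist1h1a. Among cells lacking G2 and M phase UMIs it was -0.29 for Ccna2 and -0.44 for Esco2. Ccna2 is among the 21 G2 and M phase genes whose UMIs chose those cells, so its value there is no independent check. Depth moved with the difference in division genes: the median was 15558.5 UMIs in members and 11504 in the sort.

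Within depth classes the division genes differed less. After thinning to 3000 UMIs, 22.0% of members (19.1 to 25.1) held 5 or more UMIs of the 21 G2 and M phase genes, against 8.84% (6.99 to 11) of the Flt3- Ly6d+ sort. Among cells with under 12000 UMIs the shares were 1.69% of members and 2.23% of the sort. Among cells with 12000 to under 24000 they were 15.8% and 12.6%, and above that 77.1% and 63.3%, the last from 30 cells of the sort, and in each the intervals overlapped. Against other control classes the share of members was lower, at 22.0% against 27.3% of Il2ra- Bcl11b- cells, 30.6% of Bcl11b+ Cd3g- cells and 38.1% of Bcl11b+ Cd3g+ cells, and the intervals of members and Il2ra- Bcl11b- cells (24.7 to 30.1) overlapped. At 12000 to under 24000 UMIs, 15.8% of members, 25.7% of Il2ra- Bcl11b- cells, 17.7% of Bcl11b+ Cd3g- cells and 43.8% of Bcl11b+ Cd3g+ cells qualified, where members and Bcl11b+ Cd3g- cells had overlapping intervals. At 24000 UMIs or more the shares were 77.1% of members, 80.5% of Il2ra- Bcl11b- cells, 73.5% of Bcl11b+ Cd3g- cells and 85.0% of Bcl11b+ Cd3g+ cells, and the intervals of all 4 classes overlapped.

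**Figure D4:**
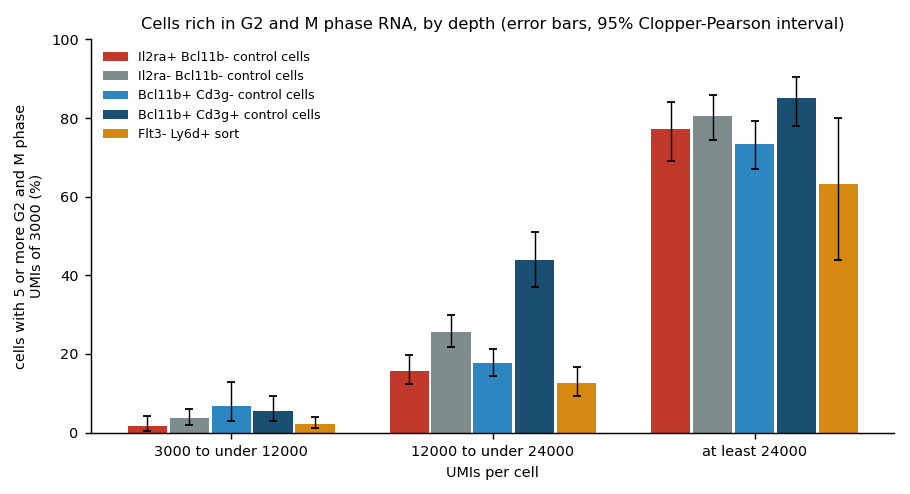
Share of cells with 5 or more G2 and M phase UMIs after thinning to 3000 UMIs (y axis, percent) by total UMIs per cell (x axis), for 4 classes of control cells and the Flt3- Ly6d+ sort, with 95% Clopper-Pearson intervals. The share is higher at greater depth in every class, and spans 1.69% to 77.1% in Il2ra+ Bcl11b- cells.

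Members differed among themselves along Il2ra itself. When control cells were ordered by raw UMIs of Il2ra and then of Bcl11b, Flt3 was at 50.7 CPM with neither RNA, 14.3, 4.47 and 1.90 CPM in members with 1, 2 or 3, and 4 or more Il2ra UMIs, and 1.59, 0.589 and 1.33 CPM with 1, 2 or 3, and 4 or more Bcl11b UMIs. Lmo2 had 96.3 CPM in the first group, 53.6, 31.1 and 15.4 CPM in the 3 groups of members and 8.35 to 4.74 CPM in the rest. Members with 1 Il2ra UMI were thus lower in both genes than cells with none. Cd7 was at 89.8, 84.0 and 41.8 CPM in the 3 groups of members, and Tyrobp at 604, 573 and 462 CPM. These groups also differed in depth, with medians of 12676, 13759 and 18899.5 UMIs among members. Ube2c, a G2 and M phase gene, was at 108, 120 and 195 CPM in the same groups. The part of depth and of cell division in these values was not tested.

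Hbb-bt and Fgf3 were lowest at the start of this order and peaked near the first Bcl11b UMI. Hbb-bt was at 190 CPM with neither RNA, at 432, 706 and 1090 CPM in the 3 groups of members, and at 1532, 997 and 516 CPM in the groups with Bcl11b RNA. Fgf3 was at 6.98 CPM, then 45.4, 67.4 and 116 CPM in members, then 135, 118 and 69.0 CPM. Cd160 was at 26.3 CPM, then 65.2, 51.3 and 68.9 CPM in members, then 48.9, 27.4 and 14.8 CPM, so its high values spanned all members. Il7r went on to higher values, at 20.2 CPM, then 37.2, 45.0 and 54.5 CPM in members, then 89.5, 129 and 149 CPM.

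**Figure D5:**
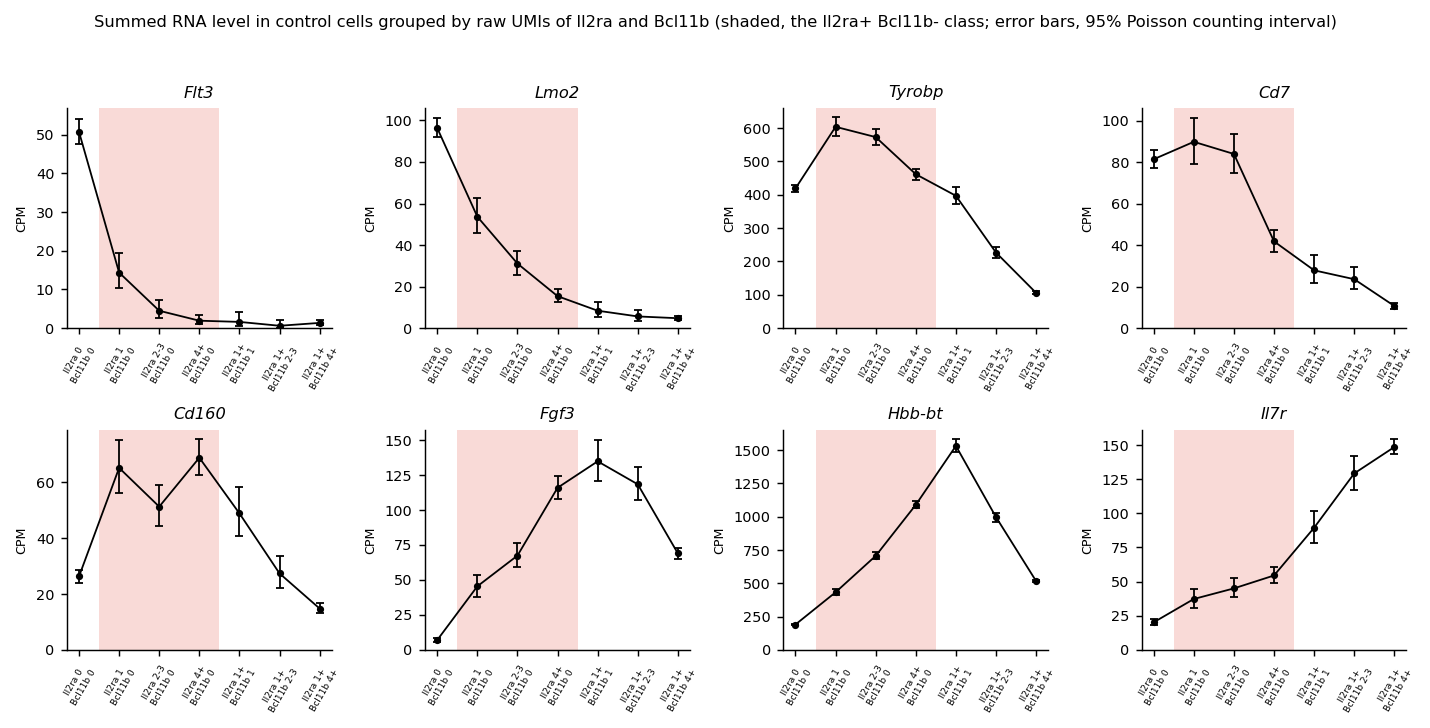
Levels of 8 genes (y axes, CPM from 0) in control cells grouped by raw UMIs of Il2ra and Bcl11b (x axes), with 95% Poisson intervals. Shading marks Il2ra+ Bcl11b- cells. Flt3 and Lmo2 are lower with more Il2ra UMIs in the shaded groups, Cd160 is high in them, Fgf3 and Hbb-bt are highest with 1 Bcl11b UMI, and Il7r is highest with the most.

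Hbb-bt was uneven between members. There were 402 members with 0 of its UMIs, 106 with 1, 120 with 2 to 11 and 132 with 12 or more, and the last set, 17.4% of members, held 94.3% of the summed UMIs. The highest member held 345. Members with an Hbb-bt UMI after thinning held Itga2b in 11.6% (7.67 to 16.7) and Gfi1b in 11.6%, against 5.69% (3.90 to 7.98) and 6.42% of members without. For both genes the intervals with and without Hbb-bt overlapped. Free RNA in droplets adds single UMIs to cells, and its part in the low Hbb-bt counts was not tested.

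Ly6d was likewise held by some members and not by others. At full depth 404 members had 0 Ly6d UMIs and 90 had 12 or more, up to 92. After thinning, members with Ly6d held Fgf3 in 23.7% (17.7 to 30.4) against 16.6% (13.6 to 19.8) of members without, and Hbb-bt in 35.5% against 26.0%. Mpo ran the other way, at 39.8% (32.7 to 47.2) against 56.6% (52.5 to 60.7). Tcf7 and Cpa3 differed less, at 45.2% against 49.5% and 53.8% against 51.4%. The intervals with and without Ly6d overlapped for Fgf3, Hbb-bt, Tcf7 and Cpa3, and were apart for Mpo. Median depths were 16959 UMIs with Ly6d and 14962 without.

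Members with 5 or more G2 and M phase UMIs numbered 167 and the others 593. Tyrobp was at 264 CPM in the 167 and 661 CPM in the 593. Cd7 was at 28.1 against 83.7 CPM, Ccl5 at 11.5 against 65.9 CPM, Cd160 at 40.9 against 74.2 CPM, Deptor at 59.7 against 111 CPM and Tcf7 at 152 against 259 CPM. Fgf3 did not share this difference, at 94.8 against 81.4 CPM, nor did Mpo, at 340.5 against 290.2 CPM. Depth differed strongly between the sets, with medians of 26248 and 13387 UMIs. CPM is a share of all UMIs of a class, so a larger share of division genes lowers the CPM of every other gene, and the size of that part was not tested.

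Genes of other cell types were looked for with fixed lists. Of 9 mast cell and basophil markers 5 had 0 UMIs in members (Mcpt4, Tpsb2, Tpsab1, Fcer1a and Ms4a2), and the summed level of 304 CPM was nearly all Cpa3. Of 9 B cell markers, Pax5 and Ms4a1 were at 0 and the sum was 50.5 CPM. For 11 NK cell markers the sum was 960 CPM both in members and in Il2ra- Bcl11b- cells, from Tyrobp and Nkg7. It was 631 CPM in Bcl11b+ Cd3g- cells and 382 CPM in Bcl11b+ Cd3g+ cells. After thinning, 55.7% of members held at least 2 of the 11. The share was 54.2% of Il2ra- Bcl11b- cells, 32.6% of Bcl11b+ Cd3g- cells and 9.66% of Bcl11b+ Cd3g+ cells. Ncr1, Klrk1 and Eomes were at 0 in members. The 11 dendritic cell markers summed to 354 CPM in members against 440 CPM in Il2ra- Bcl11b- cells; Cd74, which loads class II molecules, had 96.9% of its UMIs in 10 members. Markers of thymic epithelium summed to 21.2 CPM, and Krt5, Foxn1 and Psmb11 were at 0.

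The 185 cells of the Flt3- Ly6d+ sort that passed the same RNA rule allow the step at Il2ra to be seen in a second sort. Against the 625 cells of that sort with neither RNA, Fgf3 was at 35.8 against 15.6 CPM, a ratio of 2.30 (1.73 to 3.05), Itga2b at 20.8 against 10.4 CPM, Hbb-bt at 896 against 470 CPM, Ccl5 at 114 against 54.1 CPM and Ly6d at 655 against 359 CPM. These 5 were also higher in members than in Il2ra- Bcl11b- control cells. Cd160 had a ratio of 1.08 (0.889 to 1.31) within the sort, against 2.39 in the control, and Lmo2 one of 0.910 (0.751 to 1.10), against 0.296. Whether the ratios differ between the sorts was not tested, since each sort was made once.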

How the data were processed

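RNA of the 5 hashtagged sorts was captured in droplets as 1 library. The authors deposited raw UMI counts per gene and barcode, made with Cell Ranger 3.0 on the mouse build mm10 per the submitters' processing notes, hashtag counts per barcode, and a table that assigns barcodes to sorts. Whether the deposited hashtag counts are reads or UMIs, the rule of assignment and any filter before deposition are not stated there. Doublets were not called, and doublets within 1 sort carry 1 hashtag and cannot be seen. Barcodes under 3000 UMIs, 52 in the control, were left out.

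UMI counts were summed per class and scaled to CPM, and ratios, intervals and medians were computed from the sums. Cells were thinned to 3000 UMIs by drawing without replacement. Members, marker lists and comparisons were chosen with earlier results of these data known. A gene is named when called and found in at least 5% of cells of the higher class after thinning, as 1 of the 10 largest ratios in each direction against all other control cells or 1 of the 8 largest in the other comparisons. Predicted, mitochondrial and ribosomal protein genes, clone names, Il2ra and Bcl11b were not named, and other genes come from 24 lists or, where highest in the class, were chosen after their values were seen. The list genes Trdc, Tcrg-C1, Tcrg-C2 and Tcrg-C4 were not analysed here. The granulocyte class held at least 7 of 14 granulocyte and monocyte markers. Reads of close paralogues, such as the H2-Q, Hbb and Ly6 genes, may be split by the counting, so their values are uncertain.

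The calculation was tested on simulated counts. Python 3.11.15 with numpy 2.4.6, scipy 1.17.1, pandas 2.3.3 and matplotlib 3.10.9 was used, with scaling factors from edgeR 4.0.16 and DESeq2 1.42.0 in R 4.3.3 among 19 alternatives.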

Additional observations from a re-analysis of the deposited data

Results flagged for a closer look

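Cells with Il2ra RNA and without Bcl11b RNA were also present in sorts outside the comparisons above, at shares above that of the Flt3+ Ly6d- HSA- sort, where they were 0.996% (0.546 to 1.67) of 1405 cells. They were 7.84% (6.36 to 9.54) of 1160 cells in the Flt3- Ly6d- HSA- sort and 3.91% (2.88 to 5.18) of 1176 cells in the Flt3+ HSA+ sort, both gated CD25-. Among 341 barcodes of at least 3000 UMIs that the authors assigned to no sort, 21.4% (17.2 to 26.1) met the same RNA rule. These barcodes have no sort and entered no comparison. None of these shares was brought to a common depth.

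Ctsg, a granule protease gene, stood out by opposite directions at the same step in 2 sorts. In the Flt3- Ly6d+ sort it was at 43.3 CPM in cells with Il2ra RNA against 28.1 CPM in cells with neither RNA, a ratio of 1.54 (1.21 to 1.95). In the control the same ratio was 0.162, and it was above 1 there once the granulocyte class was left out. The difference between the sorts was not tested, and the part of granulocytes in it was not tested beyond that.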

How the results depend on the processing

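Each sort was made once, so intervals cover counting error only. No paired analysis was possible because each sort was made once and the labels give no replicate numbers. Counts of genes stayed within 1.5 times the reported ones with factors from edgeR or DESeq2, equal weight for each cell, at least 2 Il2ra UMIs, at most 1 Bcl11b UMI, a filter on genes and mitochondrial UMIs per cell, and a filter on hashtags. They also did without the granulocyte class and without the deepest 5% of cells. The other settings moved some counts, and where no value shows a cause, the cause was not tested.

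The reported counts were 80 higher and 204 lower over all other control cells, 152 and 229 over Il2ra- Bcl11b- cells, 181 and 176 over Bcl11b+ Cd3g- cells, and 293 and 224 over the Flt3- Ly6d+ sort. With a minimum of 50 CPM there were 25 higher and 54 lower over all other control cells, 38 higher and 58 lower over Il2ra- Bcl11b- cells, 50 higher and 49 lower over Bcl11b+ Cd3g- cells and 92 higher and 51 lower over the Flt3- Ly6d+ sort. The genes highest in the class then numbered 3, all among the 14 reported. With no minimum, for genes with a UMI in both, there were 1254 higher and 1287 lower over all other control cells, 1059 higher and 1457 lower over Il2ra- Bcl11b- cells, 1469 higher and 1164 lower over Bcl11b+ Cd3g- cells and 1213 higher and 1481 lower over the Flt3- Ly6d+ sort. With cells thinned to 3000 UMIs in the same classes there were 190 higher and 388 lower over all other control cells, 335 higher and 420 lower over Il2ra- Bcl11b- cells, 464 higher and 466 lower over Bcl11b+ Cd3g- cells and 516 higher and 475 lower over the Flt3- Ly6d+ sort. The genes highest in the class then numbered 49, of which 7 were among the 14 reported. Thinned before the classes were assigned, there were 147 higher and 365 lower over all other control cells, 289 higher and 410 lower over Il2ra- Bcl11b- cells, 413 higher and 481 lower over Bcl11b+ Cd3g- cells and 723 higher and 777 lower over the Flt3- Ly6d+ sort. Of the reported calls over all other control cells, 25 of 80 higher and 99 of 204 lower were found again. Over Il2ra- Bcl11b- cells 79 of 152 and 155 of 229 were. For Bcl11b+ Cd3g- cells the shared calls were 109 of 181 and 100 of 176, and for the Flt3- Ly6d+ sort 244 of 293 and 183 of 224. The genes highest in the class then numbered 36, of which 3 were among the 14 reported. Cells with under 12000 UMIs gave 224 higher and 477 lower over all other control cells, 283 higher and 408 lower over Il2ra- Bcl11b- cells, 669 higher and 772 lower over Bcl11b+ Cd3g- cells and 193 higher and 274 lower over the Flt3- Ly6d+ sort. The genes highest in the class then numbered 44, of which 5 were among the 14 reported. Those with 12000 to under 24000 gave 110 higher and 101 lower over the Flt3- Ly6d+ sort. Those with at least 24000 gave 341 higher and 327 lower over Il2ra- Bcl11b- cells and 640 higher and 548 lower over the Flt3- Ly6d+ sort. Cells lacking UMIs of the G2 and M phase genes gave 339 higher and 300 lower over Bcl11b+ Cd3g- cells and 136 higher and 145 lower over the Flt3- Ly6d+ sort. Totals without mitochondrial and ribosomal protein genes gave 284 higher and 192 lower over Bcl11b+ Cd3g- cells and 299 higher and 402 lower over the Flt3- Ly6d+ sort. The genes highest in the class then numbered 27, with all 14 reported ones among them. Without cells holding at least 2 markers of granulocytes, B cells or dendritic cells there were 361 higher and 576 lower over all other control cells, 533 higher and 685 lower over Il2ra- Bcl11b- cells, 403 higher and 469 lower over Bcl11b+ Cd3g- cells and 503 higher and 551 lower over the Flt3- Ly6d+ sort. The genes highest in the class then numbered 52, of which 5 were among the 14 reported. Members numbered 159 under the last of these, 236, 393 and 131 in the 3 ranges of depth, 369 in cells lacking G2 and M phase UMIs, and 561 to 893 under the other rules and filters on cells. G2 and M phase UMIs of at least 10 were found in 14.7% of Il2ra+ Bcl11b- cells, 17.4% of Il2ra- Bcl11b- cells, 18.6% of Bcl11b+ Cd3g- cells, 30.0% of Bcl11b+ Cd3g+ cells, 20.8% of all other control cells and 5.45% of the Flt3- Ly6d+ sort. G2 and M phase UMIs of at least 3 were found in 27.5% of Il2ra+ Bcl11b- cells, 32.8% of Il2ra- Bcl11b- cells, 37.2% of Bcl11b+ Cd3g- cells, 43.6% of Bcl11b+ Cd3g+ cells, 36.8% of all other control cells and 13.1% of the Flt3- Ly6d+ sort.

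Of 270 ratios of named genes past 1.5-fold, 41 changed sign under at least 1 setting. The log2 ratios with the changed sign follow. By thinning before the classes were assigned they were Ccna2 (0.048), Cd7 (-0.31), Cish (-0.42), Dtx1 (-0.20), Egr1 (-0.062), Prkca (0.040) and Rag2 (0.011) over all other control cells, Gfi1 (0.24), Lgals1 (0.037), Pfkp (0.11), Prkcq (-0.036), Rgcc (0.24) and Sh2d1b1 (-0.20) over Il2ra- Bcl11b- cells and Cd74 (-2.60), Ly6d (0.079) and Prtn3 (-0.96) over the Flt3- Ly6d+ sort. By thinning in the same classes it was Prtn3 (0.045) over Bcl11b+ Cd3g- cells. In cells with under 12000 UMIs they were Cish (-0.25), Ctsg (0.73), Egr1 (-0.031) and Prtn3 (0.58) over all other control cells, Arhgap19 (0.71), Ctsg (0.039), Gsr (0.13), Pfkp (0.61) and Prtn3 (0.64) over Il2ra- Bcl11b- cells, Cish (-0.50) and Prtn3 (0.49) over Bcl11b+ Cd3g- cells and Ccl5 (0.15), Ccna2 (-1.59), Cd74 (-3.04), Esco2 (-0.13) and Hist1h1a (-0.28) over the Flt3- Ly6d+ sort. In cells with 12000 to under 24000 UMIs they were Ctsg (0.18) over all other control cells, Prtn3 (1.14) over Bcl11b+ Cd3g- cells and Prtn3 (-0.68) over the Flt3- Ly6d+ sort. In cells with at least 24000 UMIs they were Egr1 (-0.24) over all other control cells, Ccl3 (-0.39), Egr1 (-0.44) and Itga2b (-0.30) over Bcl11b+ Cd3g- cells and Adgrl4 (0.60), Ccl5 (0.55), Cd74 (-3.31), Clu (-0.16), Prkca (-0.0064) and Zfp36 (0.35) over the Flt3- Ly6d+ sort. In cells lacking G2 and M phase UMIs they were Arhgap19 (0.73) and Pfkp (0.0052) over Il2ra- Bcl11b- cells, Cdkn3 (0.97) and Prtn3 (0.74) over Bcl11b+ Cd3g- cells and Ccna2 (-0.29), itself among the genes that chose these cells, Esco2 (-0.44) and Prtn3 (-0.18) over the Flt3- Ly6d+ sort. With the deepest 5% of cells left out they were Ctsg (0.20) over all other control cells and Prtn3 (2.61) over Bcl11b+ Cd3g- cells. With the granulocyte class left out they were Ctsg (1.13) and Prtn3 (0.40) over all other control cells, Ctsg (0.43) and Pfkp (0.18) over Il2ra- Bcl11b- cells, Prtn3 (1.06) over Bcl11b+ Cd3g- cells and Prtn3 (-0.56) over the Flt3- Ly6d+ sort. With cells with 2 or more markers of granulocytes, B cells or dendritic cells left out they were Adgrl4 (0.14), Ctsg (2.20) and Lmo2 (0.53) over all other control cells and Arhgap19 (2.26), Chn2 (-0.25), Cpa3 (-0.072), Ctsg (1.14), Il7r (-0.020), Pfkp (0.34) and Rgcc (0.31) over Il2ra- Bcl11b- cells.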
